A study of Mus musculus with 76 samples.

Results

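The genes of cholesterol and fatty acid synthesis were followed across bulk RNA sequencing of mouse thymus, cells sorted from it, inguinal lymph node and cultures labelled Treg (regulatory T cells). The set holds 32 genes, taken by their symbols, of the 55487 gene IDs in the deposited tables, and all 32 were found. The mevalonate arm has 7 of them: Acat2, Hmgcs1, Mvk, Pmvk, Mvd, Idi1 and Fdps. The sterol arm has 11: Fdft1, Sqle, Lss, Cyp51, Tm7sf2, Msmo1, Nsdhl, Hsd17b7, Ebp, Sc5d and Dhcr7. Insig1, Srebf1, Srebf2 and Stard4 are 4 regulators or carriers, 8 genes make and desaturate fatty acids (Acly, Acaca, Fasn, Elovl6, Scd1, Scd2, Fads1 and Fads2), and 2 export sterol (Abca1 and Abcg1). On GRCm38, GENCODE vM21 places Idi1 at chr13:8885501-8892451, Acaca at chr11:84129672-84401651, Scd1 at chr19:44394455-44407879 and Scd2 at chr19:44293674-44306864.

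Cells build cholesterol from acetyl-CoA: the mevalonate arm makes isoprenoid units, squalene synthase joins them, and the sterol arm closes and trims the ring system. When sterol in the endoplasmic reticulum is low, SREBP transcription factors (made from Srebf1 and Srebf2) travel to the Golgi, are cut there and switch these genes on, while INSIG proteins hold them back when sterol is plentiful. Oxysterols instead activate the nuclear receptor LXR, which raises the exporters ABCA1 and ABCG1, and dividing T cells are known to turn synthesis up and export down to supply new membrane.

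The mice were SOD1-G93A animals, a model of amyotrophic lateral sclerosis that carries a mutant human SOD1 transgene under the broadly active human SOD1 promoter, and wild-type (WT) animals. The labels give the strain SOD1-G93A for both genotypes, so "SOD1" here means the genotype labelled Sod1Mut. Medullary and cortical thymic epithelial cells (mTEC, cTEC), Treg (regulatory T cells) and CD4 cells had been sorted from thymus at d120 and d30, giving 46 libraries, while whole thymus gave 6 libraries and inguinal lymph node (iLN) another 6, all of d120. Another 18 libraries came from Treg cultures of both genotypes, titled as Tregdiff, without activation (T0) and at activation times T2 and T20, for which the labels state no unit. The 26 groups of genotype, population and time had 3 libraries each, except WT cTEC and WT CD4 at d30 with 2. The labels do not say whether libraries of a group came from separate animals, so the p-values measure the spread between these libraries, which may be technical.

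Total counts ran from 15135 to 36919936 per library, and 8 libraries had under 3e+05 counts or under 8000 detected genes. These were SOD1 mTEC d30 replicate 1 with 15135 counts, SOD1 cTEC d120 replicate 3 with 7627 genes, 1 iLN library of each genotype (replicate 2), and in the cultures SOD1 T2 replicate 3, SOD1 T20 replicates 2 and 3 and WT T2 replicate 1. Whole thymus was deposited as TPM, which keeps no depth. Sod1, whose reads may include the transgene, was higher in SOD1 in 13 of 13 genotype comparisons, by 5.60- to 15.5-fold (highest adjusted p = 0.0202), and its libraries did not overlap in 12 of 13. The exception was mTEC d30, where the library of 15135 counts held 1 Sod1 read. Column names of the WT d30 sorted libraries in the deposited table start with SOD1, and the titles and genotype labels, which call them WT, were followed. The d30 and d120 libraries carry differently styled names, so age and library set cannot be told apart. Genes listed for cTEC (Psmb11, Prss16, Ly75, Ccl25, Cxcl12, Epcam and Foxn1) summed to 4769 to 23130.0 CPM in cTEC and 688 to 2967 CPM in mTEC, without overlap. In contrast, mTEC markers summed to 1101 to 5471 CPM in mTEC and 621 to 4262 CPM in cTEC, and Treg markers to 1295 to 2571 CPM in Treg and 513 to 1299 CPM in CD4, both with overlap. Exons of 10 of the 32 genes share bases with another gene and 5 with a protein-coding one, and paralogues such as Scd1 and Scd2 may share reads, while how reads were counted, and whether by strand, is not stated in the sources used here. In bulk samples, fewer cells of a type and less RNA per cell cannot be told apart.

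Levels below are CPM, that is, counts per library size, with sizes scaled by the trimmed mean of M-values (TMM), and comparisons between genes use CPM per kilobase of exon. At d30 the desaturase Scd2 was among the leading genes of each sorted population. Per kilobase, Treg of d30 gave Scd2 64.6, the isoprenoid isomerase Idi1 62.7 and the citrate lyase Acly 52.6. CD4 of d30 gave Acly 43.5, Scd2 35.2 and Insig1, which anchors the SREBP complex, 28.1. Among epithelial cells of d30, mTEC gave Scd2 48.7, the lanosterol demethylase Cyp51 38.6 and Scd1 35.7, and cTEC gave Scd2 68.3, Idi1 44 and the lathosterol oxidase Sc5d 43.6. The lymph node ranked otherwise, with Scd1 at 45.8, Srebf2 at 26.4 and the exporter Abcg1 at 21 CPM per kilobase. At d120 the leaders were Srebf2 (42.8) and Acly (32.2) in Treg, Ebp (17.7) and Srebf2 (17.3) in CD4, Hmgcs1 (32.3) and Cyp51 (27.9) in mTEC, and Sc5d (69.7) and Hmgcs1 (37.1) in cTEC. With the length of the longest transcript, the first gene became Idi1 in Treg of d30 and Srebf2 in CD4 of d120, and the first genes of the other populations and days and of iLN were as given, while some lower places changed. Acetyl-CoA carboxylase, Acaca, was lowest in Treg of both days by exon length, with 0.884 CPM per kilobase at d120 and 0.826 at d30, but by the longest transcript Scd1 was lowest at d30.

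The desaturase Scd1 and the exporter Abca1 were high in the lymph node. Scd1 had a lowest, median and highest level of 159, 215 and 324 CPM in iLN, 134, 145 and 277 CPM in mTEC d30 and 2.33, 4.31 and 9.76 CPM in Treg d30. Abca1 was 69, 120.1 and 135 CPM in iLN and 13.3, 15 and 26.3 CPM in Treg d30. All iLN libraries lay above all Treg d30 libraries for both genes, but the tables were scaled separately and this was not tested. Beside these Scd1 levels, adipocyte markers summed to 155 to 354 CPM in SOD1 iLN and 266 to 424 CPM in WT iLN, and 461 to 1274 CPM in mTEC, against 0 to 114 CPM in cTEC and 3.49 to 34.9 CPM in sorted T cells. Of the defining adipocyte genes, Adipoq had 0 to 3 CPM in SOD1 iLN and 0 to 12 CPM in WT iLN, and Fabp4 had 21.8 to 60 CPM in SOD1 iLN and 29.9 to 196 CPM in WT iLN. The sums did not follow Scd1 everywhere: WT mTEC of d120 had Scd1 at 102, 23.5 and 6.35 CPM with sums of 461 to 697 CPM. The part of adipocyte RNA in the Scd1 levels was not tested.

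**Figure D1:**
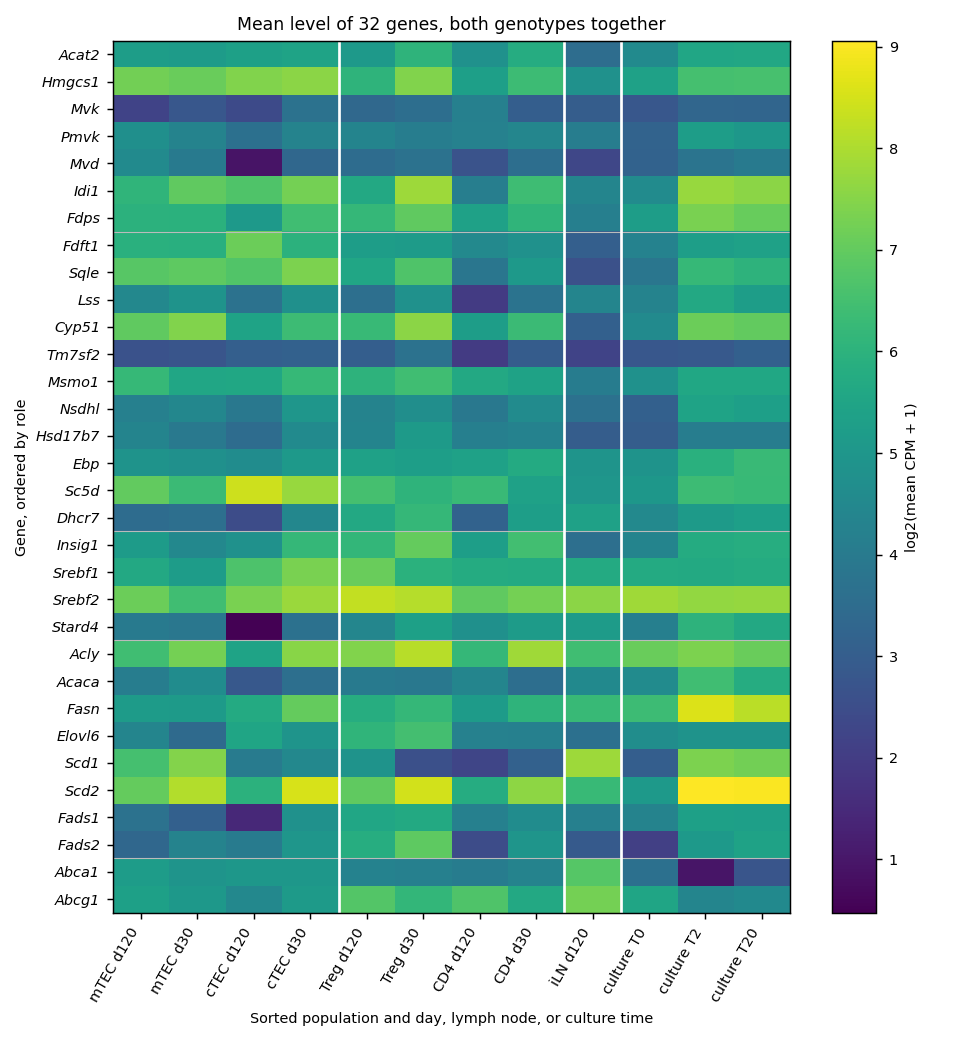
Mean level of the 32 genes, as log2(CPM + 1) by colour, with genes in rows grouped by role (lines) and sorted populations by day, iLN and cultures in columns, both genotypes together. Cultures at T2 and T20 are brighter than T0 for Idi1, Cyp51, Scd1 and Scd2, and d120 columns are darker than d30 columns of Treg and CD4 for Idi1 and Scd2.

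At T2 of activation in the Treg cultures, most synthesis genes were higher and both exporter genes lower. At T2 against T0, 23 of the 32 genes were higher and 2 were lower (edgeR quasi-likelihood test, adjusted p under 0.05), where 25.4% of all 11787 genes tested were higher and 36.1% lower. The median log2 fold change was 1.28 over the 32 genes and -0.24 over all genes tested. By role, higher genes numbered 5 of 7 in the mevalonate arm, 10 of 11 in the sterol arm, 2 of 4 regulators and carriers, 6 of 8 in fatty acid synthesis and 0 of 2 exporters, and both exporters were lower. For 12 of the 32 genes (37.5%) every T2 library was above every T0 library, and for 0 every one was below, where 9.79% of all genes tested were wholly above and 17.8% wholly below.

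In the mevalonate arm, Idi1, which isomerises isopentenyl diphosphate, had a lowest, median and highest level of 7.12, 22.1 and 49 CPM at T0, 157, 218 and 252 CPM at T2 and 117, 189.7 and 262 CPM at T20. All 6 libraries of T2 lay above all 6 of T0, and the T2 and T20 ranges overlapped. Its T2 mean was 212 ± 34 CPM against 23.7 ± 14.2 CPM at T0 (SD, n = 6 each), 8.29-fold higher (log2 fold change 3.05 ± 0.28 SE, adjusted p = 1.16e-26). Fdps, the farnesyl diphosphate synthase, averaged 159.7 ± 75.7 CPM at T2 against 37.3 ± 5.93 CPM at T0, a log2 fold change of 2.09 ± 0.32 (SE, adjusted p = 9.21e-10). Hmgcs1, which makes HMG-CoA, Acat2, the thiolase before it, and Pmvk, the phosphomevalonate kinase, also rose, by 2.24-, 2.04- and 4.14-fold. Their means at T2 and T0 were 92.2 ± 15.6 and 41 ± 10.7 CPM for Hmgcs1, 46 ± 18.8 and 23.2 ± 6.07 CPM for Acat2, and 37.4 ± 25.6 and 8.24 ± 4.7 CPM for Pmvk. The kinase Mvk (8.92 ± 3.4 CPM at T2, 6.03 ± 4.61 CPM at T0) and the decarboxylase Mvd (12.7 ± 5.23 CPM at T2 and 7.98 ± 5.88 CPM at T0) did not pass the test.

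In the sterol arm, Cyp51 ranged over 14.2, 21.7 and 36.5 CPM at T0, 95.4, 137 and 171 CPM at T2 and 88.5, 123 and 156 CPM at T20, again as lowest, median and highest library. Squalene epoxidase, encoded by Sqle, ranged over 7.16, 12.9 and 19.5 CPM at T0, 60.9, 69.4 and 98.2 CPM at T2 and 46.1, 55.5 and 87.2 CPM at T20. Both genes had every T2 and T20 library above every T0 library. At T2, Cyp51 changed by 2.54 ± 0.26 (SE, adjusted p = 1.18e-20) on the log2 scale and Sqle by 2.42 ± 0.27 (SE, adjusted p = 1.15e-17). The sterol dehydrogenase Nsdhl averaged 43.3 ± 11 CPM at T2 and 7.52 ± 4.74 CPM at T0. Nsdhl changed by 2.34 ± 0.41 (SE, adjusted p = 5.01e-08), Sc5d by 1.4 ± 0.24 (SE, adjusted p = 5.35e-08) and lanosterol synthase, Lss, by 1.5 ± 0.28 (SE, adjusted p = 2.94e-07). The other 5 that rose were Ebp, a sterol isomerase, Msmo1, a methylsterol oxidase, Hsd17b7, a ketosteroid reductase, squalene synthase (Fdft1) and Dhcr7, which makes the final reduction to cholesterol. Their folds ran from 1.73 for Dhcr7 to 2.89 for Hsd17b7. Ctsb, which shares exon bases with Fdft1 on the opposite strand, also rose at T2 (0.54 ± 0.21 SE, adjusted p = 0.0202). Akap9, which overlaps Cyp51 in the same way, fell (-1.72 ± 0.40 SE, adjusted p = 5.18e-05). The part of shared reads was not tested. Tm7sf2 was the 1 gene of the arm that did not pass, with 6.24 ± 6.04 CPM at T2 and 5.99 ± 3.68 CPM at T0 (SD, n = 6 each).

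Among regulators and carriers, Insig1, itself an SREBP target, rose by 1.46 ± 0.28 (SE, adjusted p = 1.1e-06) and the cholesterol carrier Stard4 by 1.88 ± 0.31 (SE, adjusted p = 6.07e-09) on the log2 scale. The SREBP genes did not pass the test: Srebf2 averaged 203 ± 72.8 CPM at T2 and 225 ± 28.1 CPM at T0 (log2 fold change -0.14 ± 0.26 SE, adjusted p = 0.64), and Srebf1 50.3 ± 15.1 CPM at T2 and 52.1 ± 15.7 CPM at T0 (0.07 ± 0.25 SE, adjusted p = 0.821).

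The desaturases Scd1, Scd2 and Fads2 had the largest folds of the set. Scd2 ranged over 9.81, 21.4 and 93.1 CPM at T0, 129, 433 and 1032 CPM at T2 and 128, 481 and 1053 CPM at T20, and Scd1 over 0, 2.73 and 32.1 CPM at T0, 33.7, 131 and 399 CPM at T2 and 24.3, 127 and 401 CPM at T20. Every T2 library was above every T0 library for both, while at T20 the Scd1 range overlapped that of T0. WT replicate 2 was the highest library for Scd1 at each time. At T2 the log2 fold changes were 4.11 ± 0.57 (SE, adjusted p = 7.09e-12) for Scd2 and 4.71 ± 0.73 (SE, adjusted p = 9.09e-10) for Scd1, or 17.3- and 26.1-fold. Fatty acid synthase, Fasn, averaged 392.4 ± 179 CPM at T2 against 81.5 ± 37.2 CPM at T0 (SD, n = 6 each), a log2 fold change of 2.27 ± 0.32 (SE, adjusted p = 8.87e-12). Acetyl-CoA carboxylase (Acaca) and the polyunsaturated fatty acid desaturases Fads1 and Fads2 rose by 3.11-, 1.96- and 11.2-fold. Acly (166 ± 42.8 CPM at T2, 135 ± 26 CPM at T0) and the elongase Elovl6 (28.7 ± 10.5 CPM at T2 and 24.8 ± 13 CPM at T0) did not pass.

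The sterol exporters went the other way. Abcg1 had a lowest, median and highest level of 24.9, 43.2 and 65.3 CPM at T0, 5.61, 19.7 and 32.6 CPM at T2 and 16.4, 22 and 33.8 CPM at T20. It averaged 19.6 ± 9.38 CPM at T2 against 45.3 ± 13.5 CPM at T0 (SD, n = 6 each) and fell at both times, with log2 fold changes of -1.18 ± 0.25 (SE, adjusted p = 1.18e-05) at T2 and -1.14 ± 0.26 (SE, adjusted p = 4.17e-05) at T20. Abca1 was 2.23, 5.63 and 46.3 CPM at T0, with 1 library, WT replicate 1, at the top, and 0, 0.585 and 2.82 CPM at T2. It passed at T2 (-2.96 ± 1.04 SE, adjusted p = 0.00887) but not at T20 (-1.48 ± 0.95 SE, adjusted p = 0.164), where SOD1 replicate 3, a low-depth library, read 30.5 CPM and the 5 others at most 1.52 CPM. The Abca1 call at T2 was lost in 2 of 19 alternatives, with adjusted p up to 0.145, and leaving out WT replicate 1 of T0 was one of them.

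**Figure D2:**
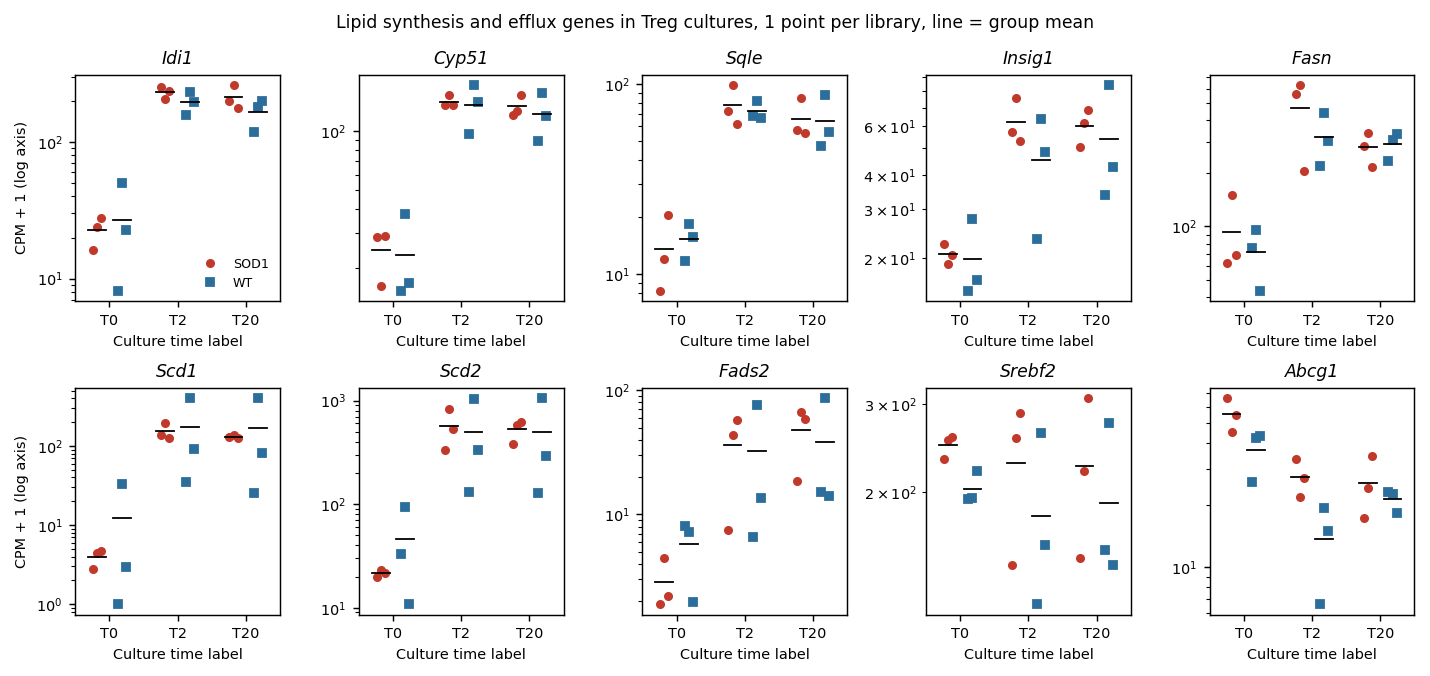
CPM + 1 on a log axis for 10 of the genes at culture times T0, T2 and T20, 1 point per library (SOD1 circles, WT squares), with a line at each group mean of 3 libraries. Idi1, Cyp51, Sqle, Fasn and Scd2 sit higher at T2 and T20 than at T0, Srebf2 overlaps at all times and Abcg1 is lower.

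At T20, 23 genes were higher and 1 was lower against T0, on a background of 25.5% higher and 36.1% lower, with a median log2 fold change of 1.12 against -0.25 over all genes. Because T2 and T20 share the T0 libraries, their resemblance is not independent. Every T20 library was above every T0 library for 17 of the 32 genes and below for 0, where 14.9% of all genes were wholly above and 19.6% wholly below. The 4 smallest p-values were those of Idi1, Cyp51, Sqle and Scd2, with log2 fold changes of 2.86 ± 0.27 (SE, adjusted p = 1.39e-23), 2.38 ± 0.26 (SE, adjusted p = 5.66e-18), 2.12 ± 0.28 (SE, adjusted p = 2.35e-13) and 4.04 ± 0.57 (SE, adjusted p = 1.66e-11). Next came Scd1 at 4.56 ± 0.73 (SE, adjusted p = 2.86e-09), Ebp at 1.42 ± 0.24 (SE, adjusted p = 3.13e-08), Fasn at 1.82 ± 0.31 (SE, adjusted p = 4.63e-08) and Fdps at 1.81 ± 0.32 (SE, adjusted p = 1.19e-07). Sc5d followed at 1.27 ± 0.25 (SE, adjusted p = 1.33e-06), Nsdhl at 2.11 ± 0.41 (SE, adjusted p = 1.58e-06), Stard4 at 1.55 ± 0.31 (SE, adjusted p = 2.62e-06) and Fads2 at 3.76 ± 0.76 (SE, adjusted p = 2.88e-06). The remaining 11 higher genes had folds of 1.69 (Msmo1) to 3.47 (Pmvk).

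Between T20 and T2 no gene of the set passed in either direction, where 0.0255% of genes were higher and 0.017% lower. At an unadjusted p under 0.05 there were 599 of 11787 genes and 1 of the set, and DESeq2 and voom called 0 of the set. That 1 was Lss, with 27.1, 34.6 and 52.7 CPM at T20 and 37.8, 48.1 and 66.8 CPM at T2 as lowest, median and highest, overlapping ranges, and a log2 fold change of -0.54 ± 0.27 (SE, adjusted p = 0.964). Ebp followed with 49, 79.1 and 95.2 CPM at T20 and 39.1, 59.5 and 90.7 CPM at T2 (0.39 ± 0.23 SE, adjusted p = 0.996).

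**Figure D3:**
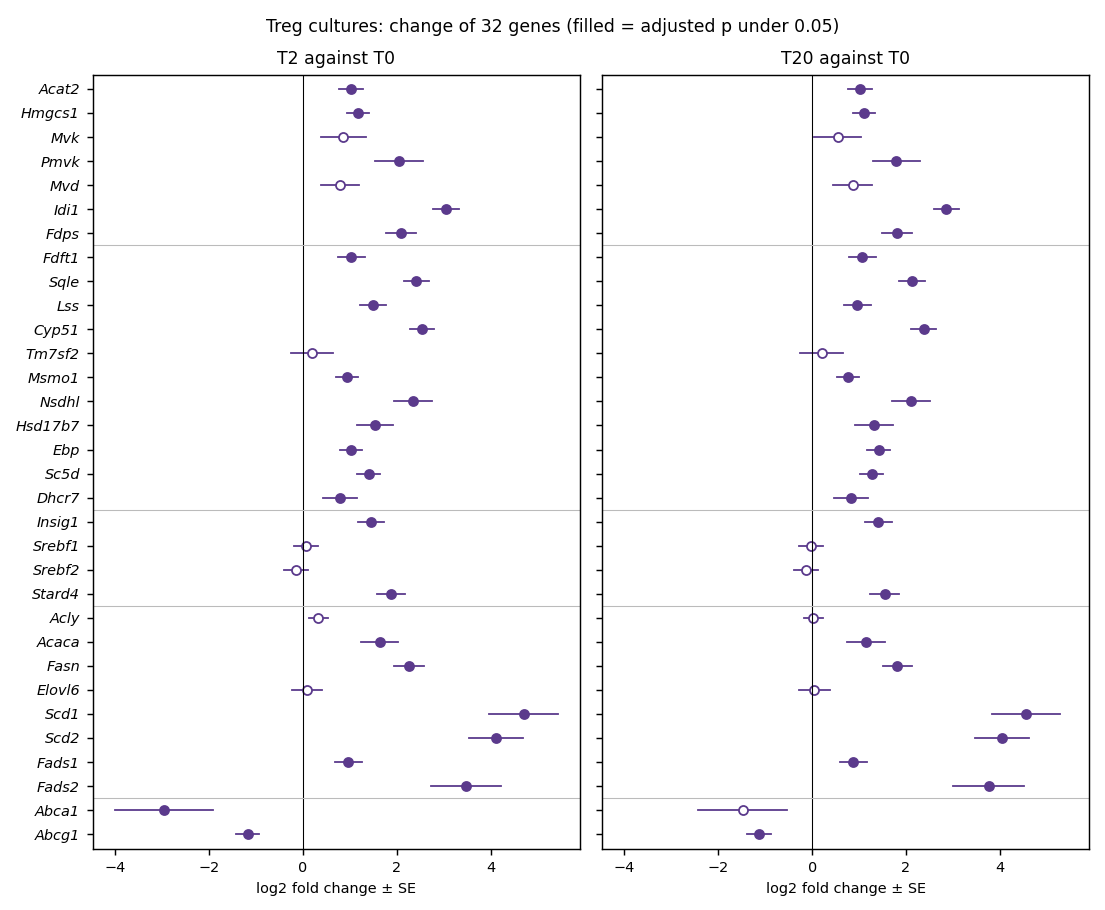
Log2 fold change with its SE for each of the 32 genes, grouped by role, at T2 against T0 (left) and T20 against T0 (right), filled where the adjusted p was under 0.05. Most synthesis genes sit right of 0, led by Scd1 (4.71 at T2) and Scd2 (4.11), and Abca1 and Abcg1 sit left.

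Genes of the same pathways outside the set were split. Of 20 other sterol genes, 7 were higher and 8 lower at T2 and 6 higher and 6 lower at T20. Among them Tmem97, a sterol-regulated membrane protein, rose by 3.52 ± 0.35 (SE, adjusted p = 1.11e-22) on the log2 scale at T2. The acetyl-CoA synthetase Acss2 fell by 2.03 ± 0.52 (SE, adjusted p = 0.000277). Of 21 other fatty acid genes 14 were tested, with 8 higher and 1 lower at T2 and 9 higher and 0 lower at T20. Acsl5, an acyl-CoA synthetase, changed by 2.48 ± 0.27 (SE, adjusted p = 5.64e-19), Mid1ip1, which activates acetyl-CoA carboxylase, by 3.12 ± 0.48 (SE, adjusted p = 4.61e-10) and the carnitine transferase Cpt1a, which sends fatty acids to oxidation, by -1.001 ± 0.33 (SE, adjusted p = 0.00458). Of 10 other efflux and LXR genes 7 were tested, with 1 higher and 5 lower at T2 and 1 higher and 6 lower at T20. The LXR targets Mylip and Apoe and the transporter Abca7 changed by -3.8 ± 0.41 (SE, adjusted p = 6.69e-19), -2.69 ± 0.43 (SE, adjusted p = 2.99e-09) and -2.74 ± 0.30 (SE, adjusted p = 6.98e-19).

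Markers of proliferation and activation moved with the set. All 8 cell cycle genes were higher at T2 and T20, their sums being 197 to 446 CPM at T0, 2324 to 3664 CPM at T2 and 2311 to 2566 CPM at T20. All 7 T cell activation genes were higher as well, with sums of 110 to 515 CPM at T0, 2083 to 5074 CPM at T2 and 2077 to 4064 CPM at T20, and so were 6 of 6 Treg markers, of which Il2ra is also in the activation list. Double-positive thymocyte markers were lower for 6 of 7 tested, and T cell markers for 4 of 5. At T0 the Treg markers summed to 75.5 to 464 CPM, below sorted Treg (1295 to 2571 CPM), with no overlap. How far the change in cell state or mixture accounts for the lipid genes was not tested.

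Promoters of the set were read from RefSeq on GRCm38.p6, from 250 bases before the start to 50 after it. The table matched 24 of the 32 genes, with 29 promoters. CCAAT, read on both strands as the letters bound by the SREBP partner NF-Y, stood in 19 of the 24 genes (79.2%), against 41.1% of 27025 genes. By promoter it stood in 20 of the 29, against 37.4% of all 32851 promoters of that length. The E-box CACGTG stood in 5 genes (Hsd17b7, Sc5d, Dhcr7, Insig1 and Abca1, 20.8%), against 8.09% of genes, and in 5 of the 29 promoters, against 7.15% of promoters. The sterol response element, searched as TCACNCCAC on both strands, stood in Hmgcs1 alone of the 24, in 1 of the 29 promoters. Over all, it stood in 1.44% of genes and 1.24% of promoters. No motif contains another, and a match describes letters only. Shown are 4 genes that rose together in the cultures (Hmgcs1, Idi1, Cyp51 and Insig1) and the exporter Abca1 that fell at T2, with matches in capitals.
Hmgcs1, chr13:119690101-119690400, plus strand: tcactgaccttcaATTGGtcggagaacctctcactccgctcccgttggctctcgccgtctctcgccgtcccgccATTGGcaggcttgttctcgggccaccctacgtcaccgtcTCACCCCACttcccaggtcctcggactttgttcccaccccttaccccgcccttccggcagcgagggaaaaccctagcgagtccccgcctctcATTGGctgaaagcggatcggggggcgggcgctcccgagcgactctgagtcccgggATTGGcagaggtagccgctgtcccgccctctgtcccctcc
Idi1, chr13:8885356-8885655, plus strand: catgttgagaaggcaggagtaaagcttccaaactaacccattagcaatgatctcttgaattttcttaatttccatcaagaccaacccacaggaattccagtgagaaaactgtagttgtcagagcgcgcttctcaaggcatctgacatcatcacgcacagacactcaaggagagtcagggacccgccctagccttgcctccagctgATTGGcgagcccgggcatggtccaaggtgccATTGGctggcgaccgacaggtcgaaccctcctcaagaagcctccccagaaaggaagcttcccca
Cyp51, chr5:4104648-4104947, minus strand: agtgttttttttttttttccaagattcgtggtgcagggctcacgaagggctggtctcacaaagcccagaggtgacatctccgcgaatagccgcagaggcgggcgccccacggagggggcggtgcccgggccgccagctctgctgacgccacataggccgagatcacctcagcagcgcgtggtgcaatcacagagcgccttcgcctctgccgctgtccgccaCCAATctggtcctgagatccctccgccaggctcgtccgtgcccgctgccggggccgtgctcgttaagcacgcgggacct
Insig1, chr5:28071162-28071461, plus strand: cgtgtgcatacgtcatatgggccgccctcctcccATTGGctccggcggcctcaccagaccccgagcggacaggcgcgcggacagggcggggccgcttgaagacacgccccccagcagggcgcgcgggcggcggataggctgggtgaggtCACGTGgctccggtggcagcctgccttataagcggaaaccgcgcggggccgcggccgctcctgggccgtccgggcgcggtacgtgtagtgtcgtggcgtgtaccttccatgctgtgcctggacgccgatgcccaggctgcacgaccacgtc
Abca1, chr4:53159846-53160145, minus strand: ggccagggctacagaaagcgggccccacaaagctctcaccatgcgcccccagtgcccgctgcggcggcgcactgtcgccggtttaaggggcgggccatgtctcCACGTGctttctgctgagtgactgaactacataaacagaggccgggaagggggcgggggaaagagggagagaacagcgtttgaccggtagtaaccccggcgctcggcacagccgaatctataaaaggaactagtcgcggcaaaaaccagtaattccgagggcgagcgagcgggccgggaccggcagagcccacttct

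In thymic Treg, genes from both arms of sterol synthesis, Idi1 and Cyp51 among them, and the desaturase Scd2 were lower at d120. At d120 against d30, both genotypes together, 14 genes were lower and 3 higher (edgeR, adjusted p under 0.05), where 16.8% of the 14824 genes tested were lower and 18.6% higher. The median log2 fold change was -0.46 over the set and 0.00635 over all genes. Lower genes numbered 4 of 7 in the mevalonate arm, 5 of 11 in the sterol arm, 2 of 4 regulators and carriers, 3 of 8 in fatty acid synthesis and 0 of 2 exporters. Libraries of d120 lay wholly below those of d30 for 11 of the 32 genes and wholly above for 2, where 6.64% of all genes tested were wholly below and 7.47% wholly above.

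Idi1 had a lowest, median and highest level of 31, 54.2 and 59.3 CPM at d120 and 163, 214 and 287 CPM at d30, without overlap. Its mean was 49.7 ± 11.1 CPM at d120 against 219.9 ± 49 CPM at d30 (SD, n = 6 each), a log2 fold change of -2.19 ± 0.19 (SE, adjusted p = 1.3e-28). Scd2 ranged over 93, 130.1 and 159.5 CPM at d120 and 286, 339 and 431 CPM at d30, also apart (-1.54 ± 0.16 SE, adjusted p = 3.87e-20). Cyp51 ranged over 57.7, 73.3 and 96.6 CPM at d120 and 144, 172 and 241 CPM at d30, again apart (-1.33 ± 0.16 SE, adjusted p = 7.31e-15). Other genes of the mevalonate arm fell, with log2 fold changes of -1.43 ± 0.18 (SE, adjusted p = 1.87e-13) for Hmgcs1, -1.06 ± 0.23 (SE, adjusted p = 4.77e-05) for Acat2 and -0.82 ± 0.19 (SE, adjusted p = 0.000135) for Fdps. The antisense gene Gm48342, which shares 12.1% of the exon bases of Hmgcs1, fell too (-1.85 ± 0.36 SE, adjusted p = 3.9e-06). Its part in the Hmgcs1 change was not tested. In the sterol arm Sqle changed by -1.2 ± 0.19 (SE, adjusted p = 4.34e-09) and, in fatty acid synthesis, Fads2 by -1.18 ± 0.17 (SE, adjusted p = 6.43e-11) and Acly by -0.73 ± 0.12 (SE, adjusted p = 5.4e-08). Insig1 changed by -0.93 ± 0.20 (SE, adjusted p = 3.21e-05), Stard4 by -1.04 ± 0.29 (SE, adjusted p = 0.00169) and Dhcr7 by -0.57 ± 0.18 (SE, adjusted p = 0.00574). Lss and Hsd17b7 complete the 14, with overlapping libraries and folds of 0.388 and 0.536.

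The 3 genes that rose in Treg were Scd1, Srebf1 and Abcg1. Scd1 ranged over 14.1, 28.1 and 46.7 CPM at d120 and 2.33, 4.31 and 9.76 CPM at d30 as lowest, median and highest library, without overlap, opposite to its paralogue Scd2 (2.54 ± 0.31 SE, adjusted p = 2.6e-14). Srebf1 averaged 135 ± 24.8 CPM at d120 against 61.2 ± 12.9 CPM at d30 (SD, n = 6 each, log2 fold change 1.16 ± 0.18 SE, adjusted p = 1.36e-09), and Abcg1 107 ± 24.4 CPM at d120 against 69.7 ± 14.5 CPM at d30 with overlapping libraries (0.6 ± 0.16 SE, adjusted p = 0.0015). Outside the set, 7 of 19 other sterol genes tested were lower and 1 higher, the higher one being the lysosomal exporter gene Npc1 at 0.97 ± 0.18 (SE, adjusted p = 1.08e-06). Of 19 other fatty acid genes 2 were lower and 3 higher, with Acsl5 at -1.16 ± 0.13 (SE, adjusted p = 5.93e-18) and the triglyceride enzyme Dgat1 at 1.99 ± 0.19 (SE, adjusted p = 6.44e-23). Of 9 other efflux and LXR genes 0 were lower and 3 higher, namely Apoe at 2.77 ± 0.42 (SE, adjusted p = 1.15e-09), Mylip at 0.73 ± 0.20 (SE, adjusted p = 0.00136) and the LXR gene Nr1h2 at 1.26 ± 0.15 (SE, adjusted p = 1.74e-14).

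Cell markers also differed with age in Treg. Double-positive thymocyte markers summed to 693 to 1222 CPM in SOD1 and 731 to 914 CPM in WT at d120, against 1919 to 2639 CPM in SOD1 and 2389 to 2750.0 CPM in WT at d30, and 4 of 8 passed as lower. Cell cycle genes were lower for 5 of 8, T cell markers for 5 of 5, B cell markers higher for 3 of 4 and Treg markers higher for 5 of 6 and lower for 1. Their part in the lipid genes was not tested.

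CD4 cells gave 6 lower and 3 higher genes at d120, where 10.1% of genes were lower and 8.05% higher. Acly had 94.3, 56.9 and 79.1 CPM in SOD1 and 44.9, 83.8 and 73.4 CPM in WT libraries of d120 against 128, 268 and 275 CPM in SOD1 and 214 and 264 CPM in WT libraries of d30, without overlap (-1.41 ± 0.32 SE, adjusted p = 0.000284). Abcg1 had 89.9, 146 and 69.5 CPM in SOD1 and 128, 95.7 and 85.2 CPM in WT libraries of d120 against 42.3, 39.3 and 56.1 CPM in SOD1 and 69.9 and 37.2 CPM in WT libraries of d30, which overlap (1.31 ± 0.30 SE, adjusted p = 0.000439). Scd2 had 35.3, 67.3 and 80.6 CPM in SOD1 and 37.3, 74.4 and 27.8 CPM in WT libraries of d120 against 79, 263 and 237 CPM in SOD1 and 164 and 219.5 CPM in WT libraries of d30 (-1.59 ± 0.38 SE, adjusted p = 0.000774). Its libraries overlapped, whereas those of Fads2 did not. Fads2 had 8.27, 1.5 and 11.6 CPM in SOD1 and 4.33, 1.5 and 0 CPM in WT libraries of d120 against 53.3, 17.5 and 37.2 CPM in SOD1 and 23.9 and 16.9 CPM in WT libraries of d30 (-2.55 ± 0.67 SE, adjusted p = 0.00227). Idi1 also fell (-2.29 ± 0.70 SE, adjusted p = 0.0104), as did Insig1 (-0.97 ± 0.32 SE, adjusted p = 0.0213) and Dhcr7 (-2.03 ± 0.69 SE, adjusted p = 0.0233). Mevalonate kinase, Mvk, rose (1.62 ± 0.49 SE, adjusted p = 0.0095), and so did Sc5d (1.24 ± 0.45 SE, adjusted p = 0.0379). Of these calls, that of Sc5d was lost in 12 of 17 alternatives (adjusted p up to 0.212), Dhcr7 in 8 of 17, Insig1 in 7 of 17, and Idi1 and Mvk in 3 of 17 each. Cell cycle markers were lower for 6 of 8, with sums of 618 to 812 CPM at d120 and 1607 to 1789 CPM at d30. Sums were also lower without overlap for T cell markers (2082 to 3296 CPM at d120 and 3918 to 4833 CPM at d30, 1 of 5 genes passing), double-positive thymocyte markers (346 to 730.3 CPM at d120 and 789 to 1522 CPM at d30, 3 of 8) and T cell activation genes (545 to 851 CPM at d120 and 1049 to 1270 CPM at d30, 2 of 7), while 4 of 6 Treg markers were higher. Their part was not tested. With trended dispersion 3 genes in place of 6 were lower, and without a filter 1 in place of 3 was higher. Without WT CD4 d30 replicate 3 there were 3 lower genes and 1 higher, and without WT d30 replicate 2, 1 higher.

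No gene of the set passed the test of a difference in age change between Treg and CD4, in a comparison chosen after seeing the data, where 0.216% of 21733 genes passed in edgeR. At an unadjusted p under 0.05, a looser threshold than that of the share, there were 2 of the 32, and DESeq2 called 1 and voom 4. Scd1 came nearest, with a difference in log2 fold change of 3.58 ± 0.95 (SE, adjusted p = 0.065), and passed in 28 of 32 alternatives. Of the 32 alternatives, 23 were fits of Treg and CD4 alone with 1 library left out, so these results are not independent. The Scd1 libraries of both populations were compared. Its CD4 libraries read 1.65, 6.48 and 0 CPM in SOD1 and 9.74, 4.86 and 0 CPM in WT at d120 and 5.57, 9.57 and 9.74 CPM in SOD1 and 11 and 3.38 CPM in WT at d30, next to the rise in Treg. Dhcr7 followed with 1.8 ± 0.90 (SE, adjusted p = 0.638).

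In cTEC, 3 genes were lower and 1 higher at d120, where 6.24% of the 14620 genes tested were lower and 3.11% higher. The desaturase gene Fads1 and the carrier gene Stard4 were at or near 0 at d120. Fads1 had 0, 10.4 and 0 CPM in SOD1 and 0, 0 and 0 CPM in WT libraries of d120, against 24.7, 33.6 and 17.3 CPM in SOD1 and 37.1 and 21.9 CPM in WT libraries of d30 (adjusted p = 0.00432). WT cTEC of d120 held 0 Fads1 reads in 5324357 counts, and at a floor of 3 counts over the group, 0.563 CPM on unscaled counts, it was at least 43.1-fold lower than WT cTEC of d30 (24.3 CPM). Stard4 had 0, 0 and 0 CPM in SOD1 and 0, 0 and 2.33 CPM in WT libraries of d120, against 9.7, 13.9 and 2.53 CPM in SOD1 and 19.3 and 13.5 CPM in WT libraries of d30 (adjusted p = 0.00193). SOD1 cTEC of d120 held 0 Stard4 reads in 7045707 counts, at least 21.8-fold lower than SOD1 cTEC of d30 (9.29 CPM; floor 0.426 CPM). Floors cover counting error only, and d120 cTEC libraries had 1269529 to 3083181 counts.

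Scd2 fell in cTEC, with 62.7, 72.3 and 0 CPM in SOD1 and 26.6, 172 and 43.4 CPM in WT libraries of d120 against 311, 604 and 357 CPM in SOD1 and 255 and 339 CPM in WT libraries of d30, which do not overlap (-2.34 ± 0.75 SE, adjusted p = 0.0243). This call was lost in 8 of 18 alternatives, with adjusted p up to 0.875 where the set of d120 libraries was a covariate. That set was split by column number, which no label names as a batch. The fit then sets d30 against the lower-numbered d120 libraries. The call was also lost without WT d120 replicate 1 or 3, SOD1 d30 replicate 2 or 3, or either WT d30 library. Fdft1, which commits isoprenoids to sterol, was the 1 gene that rose, with 171, 163 and 141 CPM in SOD1 and 169.8, 74.8 and 119 CPM in WT libraries of d120 against 76.2, 79.3 and 63.2 CPM in SOD1 and 52.7 and 40.4 CPM in WT libraries of d30 (1.49 ± 0.47 SE, adjusted p = 0.0202). The exons of Fdft1 share 774 bases (18.3%) with Ctsb on the opposite strand, and whether counting used strand is not stated. Ctsb, a lysosomal protease gene, had 191 to 655 CPM at d120 and 342 to 885 CPM at d30 in cTEC, a difference that did not pass (log2 fold change -0.11 ± 0.38 SE, adjusted p = 0.924). The Fdft1 call was lost in 8 of 18 alternatives, trended dispersion and the fit without a filter among them. Without the low-depth libraries 7 genes in place of 3 were lower, and with voom 6. The omission of SOD1 cTEC d120 replicate 3 alone gave 7, and the Fdft1 call was lost without any 1 of the 5 d30 libraries or without WT d120 replicate 1. T cell markers were lower in cTEC for 5 of 5 genes, with sums of 28.1 to 247 CPM at d120 and 1130.0 to 1538 CPM at d30, double-positive thymocyte markers for 6 of 8 and cell cycle genes for 3 of 8, while 4 of 7 mTEC markers were higher. Their part in these changes was not tested.

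In mTEC 2 genes were lower and 0 higher, on a background of 3.45% lower and 4.01% higher. Scd2 had a lowest, median and highest level of 86.2, 133 and 155 CPM at d120 and 68.8, 285 and 406 CPM at d30 (-1.15 ± 0.25 SE, adjusted p = 0.000243). Acly ranged over 38.6, 73.1 and 146 CPM at d120 and 103, 156 and 195 CPM at d30 (-0.999 ± 0.27 SE, adjusted p = 0.00596). The ranges overlapped for both. Acly lost its call in 3 of 19 alternatives. Scd2 was thus lower at d120 in all 4 sorted populations, each tested on its own libraries, with the cTEC call lost in 8 of 18 alternatives. mTEC markers were higher at d120 for 4 of 7 genes. Without SOD1 mTEC d30 replicate 2, 1 gene in place of 2 was lower.

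The age change differed between mTEC and cTEC for 3 genes, in a comparison chosen after seeing the data, where 4.22% of genes passed: Fads1 (6.997 ± 1.33 SE, adjusted p = 3.45e-05), Stard4 (6.49 ± 1.36 SE, adjusted p = 0.000267) and Mvd (3.71 ± 0.94 SE, adjusted p = 0.0049). The Mvd call was lost in 17 of 32 alternatives (adjusted p up to 0.234), each a fit of the 2 populations with 1 library left out, and the Fads1 and Stard4 calls in 0 of 32. These fitted differences rest on near-empty cTEC libraries and depend on the prior count. Mvd had 1.67, 0 and 0 CPM in SOD1 and 0, 0 and 3.73 CPM in WT libraries in cTEC of d120, and 21.3, 32.6 and 10.5 CPM in SOD1 and 23.1, 12.3 and 36.2 CPM in WT libraries in mTEC of d120. At d30 the Mvd means were 14.7 ± 8.69 CPM in mTEC and 9.16 ± 3.24 CPM in cTEC (SD, n = 6 and 5). Fads1 in mTEC had 1.86, 7.89 and 27.3 CPM at d120 and 0, 8.54 and 12.1 CPM at d30, as lowest, median and highest library, and Stard4 had 0.706, 16.6 and 28.6 CPM at d120 and 0, 14.2 and 24.8 CPM at d30.

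**Figure D4:**
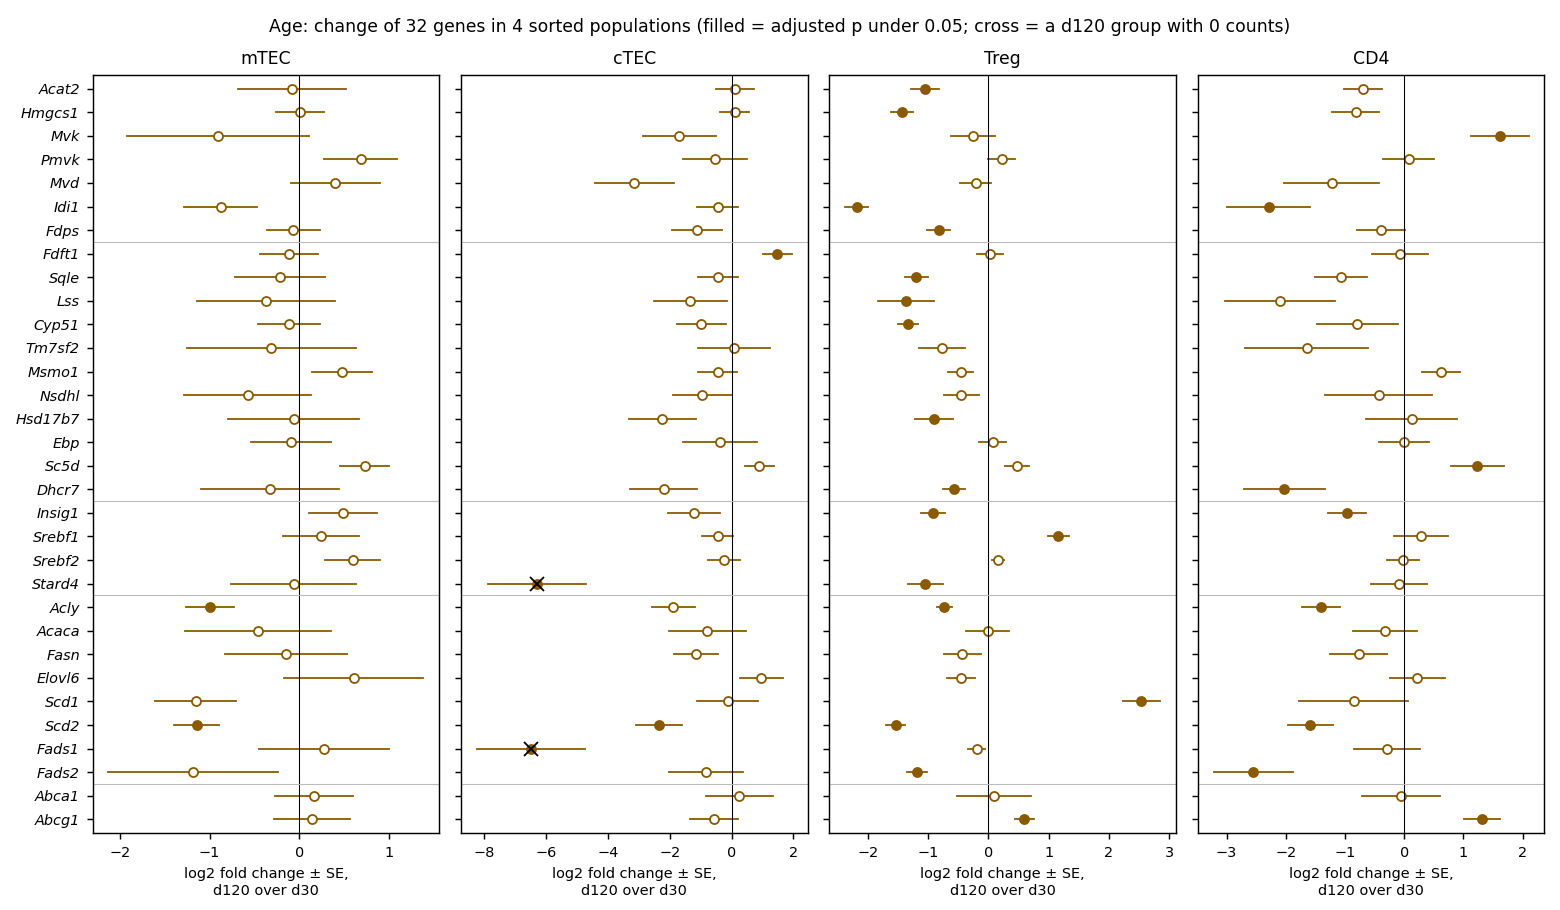
Log2 fold change of d120 over d30 with its SE for the 32 genes in mTEC, cTEC, Treg and CD4, filled where the adjusted p was under 0.05 and crossed where a d120 group held 0 counts, so that the position is not a bound. Treg has 14 filled points left of 0 and 3 right of it, and Scd2 is filled and left of 0 in all 4 panels.

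Between epithelial populations at d30, mTEC had 5 genes lower and 1 higher than cTEC, where 6.22% of genes were lower and 17.2% higher in a fit of all sorted libraries. Scd1 was higher in mTEC, with a lowest, median and highest level of 134, 145 and 277 CPM against 22, 43.4 and 11.5 CPM in SOD1 and 23.3 and 5.7 CPM in WT libraries of cTEC, without overlap (3.18 ± 0.75 SE, adjusted p = 0.000436). Srebf1 was lower, with 0, 37.7 and 69.6 CPM in mTEC against 121, 216 and 171 CPM in SOD1 and 115 and 171 CPM in WT libraries of cTEC (-1.89 ± 0.45 SE, adjusted p = 0.000503). Sc5d had 64.7, 70.1 and 103 CPM in mTEC against 141, 325 and 231 CPM in SOD1 and 119 and 245 CPM in WT libraries of cTEC (-1.42 ± 0.39 SE, adjusted p = 0.00294). Both genes were apart between the populations. Srebf2 had 34.4, 89.8 and 121 CPM in mTEC against 222, 265 and 197 CPM in SOD1 and 219.7 and 178 CPM in WT libraries of cTEC (-1.2 ± 0.37 SE, adjusted p = 0.00882). Insig1 (-1.55 ± 0.51 SE, adjusted p = 0.0145) and Fasn (-1.77 ± 0.68 SE, adjusted p = 0.0405) were lower too. The calls of Fasn, Insig1 and Srebf2 were lost in 14 of 20, 12 of 20 and 12 of 20 alternatives. Of the 20, 11 were fits of the 2 populations alone with 1 library left out, so these losses are not independent. Of the 7 mevalonate genes 0 passed. In a fit of the 2 populations alone 2 genes in place of 5 were lower, and in a fit of the compared groups alone 8, and median-of-ratios scaling moved the median of all genes to 0.29 from 0.027. Adipocyte markers were higher in mTEC for 4 of 6 tested, and double-positive thymocyte and T cell markers were lower for 7 of 8 and 5 of 5, and their part was not tested.

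At d120, mTEC had 5 genes higher and 3 lower than cTEC, where 25.1% of genes were higher and 5.35% lower and the median of all genes stood at 0.62. With a replicate block 8 genes in place of 5 were higher. The set's median log2 fold change was 0.31, below that of all genes. Mvd was apart, at 22.7 ± 10.4 CPM in mTEC and 0.90 ± 1.54 CPM in cTEC (SD, n = 6 each, log2 fold change 4.68 ± 0.73 SE, adjusted p = 8.93e-09). Stard4 (adjusted p = 1.29e-08) and Fads1 (adjusted p = 3.85e-05) were higher against the near-empty cTEC libraries given above. Scd1 (2.33 ± 0.65 SE, adjusted p = 0.00265) and Cyp51 (1.78 ± 0.57 SE, adjusted p = 0.00894) were higher, with overlapping libraries. Fdft1 (-1.29 ± 0.35 SE, adjusted p = 0.00181), Sc5d (-1.32 ± 0.36 SE, adjusted p = 0.00191) and Elovl6 (-1.36 ± 0.52 SE, adjusted p = 0.0335) were lower. The Elovl6 call was lost in 17 of 22 alternatives (adjusted p up to 0.412), the Cyp51 call in 2 of 22, and those of Fdft1 and Sc5d in 0. Of the 22, 12 were fits of the 2 populations alone with 1 library left out. Adipocyte markers were higher in mTEC for 5 of 6 tested and myeloid markers for 5 of 6, and T cell markers lower for 4 of 5, and their part was not tested.

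Most log2 fold changes of Treg over CD4 were positive. At d30, 28 of 32 log2 fold changes were positive, with a median of 0.68 against 0.02 over all genes, but 1 gene passed as higher and 0 as lower (0.828% of genes higher and 0.828% lower). That gene was Elovl6, with 47.2, 93.8 and 113 CPM in Treg against 20.9, 17.2 and 17.7 CPM in SOD1 and 15.9 and 16.5 CPM in WT libraries of CD4 (2.37 ± 0.58 SE, adjusted p = 0.00673). This count depends on the fit, with 4 to 17 higher genes under DESeq2, voom, fits of fewer groups or without low-depth libraries. The shares of 0.828% are those of the main fit and are no background for these counts. Shares of all genes in those fits are not given here, so the larger counts are not read as a change of the set. At d120, 9 genes were higher and 0 lower (5.92% and 1.32% of genes). Fads2 had 25.3, 58.4 and 85.5 CPM in Treg and 0, 2.91 and 11.6 CPM in CD4, without overlap (3.84 ± 0.89 SE, adjusted p = 0.00107). Scd1 had 14.1, 28.1 and 46.7 CPM in Treg and 0, 3.26 and 9.74 CPM in CD4, also apart (2.88 ± 0.69 SE, adjusted p = 0.00168). Dhcr7 had 29.4, 47 and 69 CPM in Treg and 0, 8.21 and 14.3 CPM in CD4 (2.7 ± 0.67 SE, adjusted p = 0.00242), and Srebf2 237, 313 and 351 CPM in Treg and 100.3, 118 and 151 CPM in CD4 (1.3 ± 0.35 SE, adjusted p = 0.006), each without overlap. Elovl6 (1.94 ± 0.53 SE, adjusted p = 0.00823), Sqle (1.77 ± 0.53 SE, adjusted p = 0.0184), Srebf1 (1.35 ± 0.42 SE, adjusted p = 0.0234), Idi1 (1.83 ± 0.59 SE, adjusted p = 0.0315) and Acly (1.24 ± 0.40 SE, adjusted p = 0.0352) were higher as well. Scaling matters here: the median of all genes was 0.44 with TMM and 0.098 with median-of-ratios scaling, which changed the split of all calls to 748 higher and 572 lower in place of 1287 and 286, and 4 genes of the set passed in place of 9. The calls of Acly and Idi1 were each lost in 5 of 22 alternatives, that of Srebf1 in 3 of 22. Of the 22, 12 were fits of Treg and CD4 alone with 1 library left out. At d30 double-positive thymocyte markers summed to 1919 to 2750 CPM in Treg and 789 to 1522 CPM in CD4, and T cell markers to 4857 to 5757 CPM in Treg and 3918 to 4833 CPM in CD4, both without overlap, with 1 of 8 and 0 of 5 genes passing. Treg markers were higher for 4 of 6 and double-positive thymocyte markers for 3 of 8 at d120. Their part was not tested.

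Between genotypes 1 gene passed in 1 comparison. In 12 of 13 comparisons of SOD1 with WT 0 genes of the set passed (edgeR, or limma for whole thymus), and in CD4 of d120 Acaca did. The share of all genes that passed in either direction was 0.168% in CD4 d120 and 0.016% in CD4 d30, 0.182% in Treg d120 and 0.027% in Treg d30, 1.14% in mTEC d120 and 0.0106% in mTEC d30, 0.308% in cTEC d120 and 0.0274% in cTEC d30. It was 0.153% in iLN, 0.0831% in whole thymus, and 0.229%, 0.619% and 0.178% in cultures at T0, T2 and T20. At an unadjusted p under 0.05 the set had 4 genes in CD4 d120 and 0 in CD4 d30, 5 in Treg d120 and 0 in Treg d30, 4 in mTEC d120 and 2 in mTEC d30, 3 in cTEC d120 and 0 in cTEC d30, 2 in iLN, 1 in whole thymus, and 1, 3 and 1 in cultures at T0, T2 and T20. The shares above are at adjusted p under 0.05, so they are no background for these unadjusted counts. The share of all genes at the unadjusted threshold is not given here, so the counts alone say nothing about the set. DESeq2 called 1 gene in CD4 d120 and 1 in cTEC d120, and voom called 0 in each comparison of counts.

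Acaca, the carboxylase that makes malonyl-CoA, had 26.5, 31.9 and 55.9 CPM in SOD1 and 2.71, 1.12 and 0 CPM in WT libraries of CD4 at d120. All 3 SOD1 libraries were above all 3 WT libraries, with means of 38.1 ± 15.7 CPM against 1.28 ± 1.36 CPM (SD, n = 3 each) and a log2 fold change of 4.79 ± 0.84 (SE, adjusted p = 4.45e-05). At d30 the CD4 libraries read 8.56, 13.5 and 12.3 CPM in SOD1 and 9.22 and 11.7 CPM in WT, and the difference between days did not pass (interaction 4.68 ± 1.09 SE, adjusted p = 0.0695, where 0.016% of genes passed). This Acaca interaction passed in 4 of 17 alternatives, with adjusted p from 0.00404 to 0.9998 over the 17. Tm7sf2 was second, with 3.47 ± 2.08 (SE, adjusted p = 1). In Treg of d120 the levels were 13.5, 10.04 and 4.71 CPM in SOD1 and 8.39, 18.9 and 35 CPM in WT, with SOD1 lower on average (-1.37 ± 0.51 SE, adjusted p = 0.327). The CD4 call held in each fit with 1 library left out (log2 fold change 4.35 to 5.61, adjusted p up to 0.00216) but was lost with trended dispersion (adjusted p = 0.339) and with voom (adjusted p = 0.98). No cell type marker passed in this comparison. Fasn was next in CD4 d120, with 22.1, 14 and 21.7 CPM in SOD1 and 8.12, 94.2 and 52.3 CPM in WT (-1.49 ± 0.66 SE, adjusted p = 0.554).

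The 2 smallest p-values elsewhere in T cells did not pass the threshold. In CD4 d30, Msmo1 had 62.5, 42.7 and 43.8 CPM in SOD1 and 30.02 and 30.8 CPM in WT (0.67 ± 0.48 SE, adjusted p = 1) and Insig1 68.7, 101 and 56.3 CPM in SOD1 and 88.2 and 121 CPM in WT (-0.51 ± 0.47 SE, adjusted p = 1). In Treg d120, Acaca is given above, and Scd1 had 22.3, 23.9 and 14.1 CPM in SOD1 and 32.2, 32.8 and 46.7 CPM in WT (-1.07 ± 0.40 SE, adjusted p = 0.329). In Treg d30, Mvd had 12, 16.9 and 12.8 CPM in SOD1 and 10.1, 11.3 and 9.35 CPM in WT (0.54 ± 0.37 SE, adjusted p = 1) and Srebf1 45.4, 57.7 and 51.3 CPM in SOD1 and 78.6, 74.2 and 60.3 CPM in WT (-0.35 ± 0.25 SE, adjusted p = 1). The Scd1 libraries of Treg d120 and both Treg d30 pairs did not overlap between genotypes. The genotype-by-age interaction in Treg called 0 genes of the set in edgeR, where 0.0607% of all genes passed. It called 0 also at an unadjusted p under 0.05, and 0 in DESeq2, with Fads1 first (0.56 ± 0.29 SE, adjusted p = 1) and Mvd second (-0.8 ± 0.51 SE, adjusted p = 1).

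In epithelium, mTEC d30 had 26 of 32 positive log2 fold changes with a median of 0.21 against -0.08 over all genes. This comparison had been noted earlier, so its sign count is not independent evidence, and SOD1 replicate 1 held 15135 counts. Cyp51 had 482, 139 and 143 CPM in SOD1 and 90.5, 85.6 and 84.3 CPM in WT (1.26 ± 0.51 SE, adjusted p = 1) and Hmgcs1 68.8, 246 and 197 CPM in SOD1 and 101, 94.9 and 113 CPM in WT (0.94 ± 0.39 SE, adjusted p = 1). The first SOD1 value of each is the library of 15135 counts. In mTEC d120, Acly had 71.2, 132 and 146 CPM in SOD1 and 74.9, 48.6 and 38.6 CPM in WT (1.09 ± 0.38 SE, adjusted p = 0.137) and Scd1 132, 134 and 149 CPM in SOD1 and 102, 23.5 and 6.35 CPM in WT (1.65 ± 0.64 SE, adjusted p = 0.239). Acly passed in 2 of 15 alternatives (adjusted p down to 0.0264) and Scd1 in 1 of 15 (adjusted p = 1.68e-06), each an edgeR fit with 1 library left out. In cTEC d120, Hsd17b7 had 39.4, 20.5 and 0 CPM in SOD1 and 1.21, 0 and 1.4 CPM in WT (4.36 ± 1.66 SE, adjusted p = 0.239), where the 0 is replicate 3, a low-depth library. Without that library Hsd17b7 passed (log2 fold change 4.88, adjusted p = 6.53e-05), and it passed in 3 of 14 alternatives. Fads1 came second through the 10.4 CPM of SOD1 replicate 2 alone. In cTEC d30, Fdft1 had 76.2, 79.3 and 63.2 CPM in SOD1 and 52.7 and 40.4 CPM in WT (0.56 ± 0.67 SE, adjusted p = 1) and Stard4 9.7, 13.9 and 2.53 CPM in SOD1 and 19.3 and 13.5 CPM in WT (-1.01 ± 1.51 SE, adjusted p = 1). The interactions with age called 0 genes of the set in edgeR and DESeq2, where 0.00529% of all genes in mTEC and 0.0205% in cTEC passed by adjusted p in edgeR. At the looser unadjusted p under 0.05 the set had 0 genes in mTEC and 2 in cTEC. The 2 smallest p-values there were those of Cyp51 (-1.3 ± 0.69 SE, adjusted p = 1) and Abcg1 (1.23 ± 0.85 SE, adjusted p = 1) in mTEC, and of Fads1 (adjusted p = 0.911) and Hsd17b7 (4.55 ± 2.18 SE, adjusted p = 0.95) in cTEC.

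In whole thymus, 27 of 32 log2 differences were negative, with a median of -0.15 on the log2(TPM + 1) scale, which understates changes of low genes, against -0.03 over 14437 genes. None passed (limma). Fads1 had 17.1, 18.4 and 16.8 TPM in SOD1 and 22.3, 20.7 and 21.2 TPM in WT, without overlap (-0.28 ± 0.12 SE, adjusted p = 0.999), and Sqle 13.2, 14.5 and 11.9 TPM in SOD1 and 19, 15.1 and 17.3 TPM in WT, with all SOD1 libraries lower (-0.35 ± 0.15 SE, adjusted p = 0.999). Scd1 had 4.24, 6.37 and 4.9 TPM in SOD1 and 36.6, 5.62 and 9.51 TPM in WT, and WT replicate 1, the highest, also had the highest adipocyte sum, 83.9 TPM against 19.2 to 57.9 TPM in the others. In iLN 10 of the 32 genes passed the filter on low counts, with Srebf1 at 89, 19.4 and 105 CPM in SOD1 and 18.5, 48.9 and 32.9 CPM in WT (1.29 ± 0.64 SE, adjusted p = 0.716) and Fasn at 133, 111 and 54 CPM in SOD1 and 58.7, 65.2 and 35.9 CPM in WT (0.98 ± 0.50 SE, adjusted p = 0.726) first.

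In the cultures, Scd1 at T0 had 1.79, 3.49 and 3.67 CPM in SOD1 and 0, 32.1 and 1.96 CPM in WT (-2.07 ± 0.97 SE, adjusted p = 0.71) and Sc5d 48.3, 47.7 and 21.4 CPM in SOD1 and 17.8, 31.6 and 20.6 CPM in WT (0.63 ± 0.36 SE, adjusted p = 0.837). Without WT replicate 2 the Scd1 difference changed sign, to 1.08. At T2, Acaca had 85, 99.3 and 213 CPM in SOD1 and 5.61, 65.5 and 43.3 CPM in WT (1.59 ± 0.55 SE, adjusted p = 0.166) and Abcg1 32.6, 21.1 and 26.1 CPM in SOD1 and 5.61, 18.4 and 14 CPM in WT (0.86 ± 0.37 SE, adjusted p = 0.345), and for both every SOD1 library was above every WT library. At T20, Abca1 had 0.698, 0 and 30.5 CPM in SOD1 and 1.52, 0 and 0.97 CPM in WT (3.16 ± 1.44 SE, adjusted p = 1), a difference that became -0.87 without SOD1 replicate 3, and Tm7sf2 had 11.9, 0 and 13.5 CPM in SOD1 and 5.76, 10.9 and 3.88 CPM in WT (0.79 ± 0.64 SE, adjusted p = 1). No gene of the set passed the test of a genotype difference in the rise with activation, in edgeR, DESeq2 or voom. Of all genes, 0.017% passed at T2 and 0.0255% at T20 by adjusted p in edgeR. At the looser unadjusted p under 0.05 the set had 0 genes at T2 and 1 at T20. The smallest p-values were those of Stard4 (1.01 ± 0.61 SE, adjusted p = 1) and Acaca (1.27 ± 0.78 SE, adjusted p = 1) at T2, and of Abca1 (4.91 ± 1.95 SE, adjusted p = 0.857) and Acly (-0.72 ± 0.41 SE, adjusted p = 1) at T20.

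**Figure D5:**
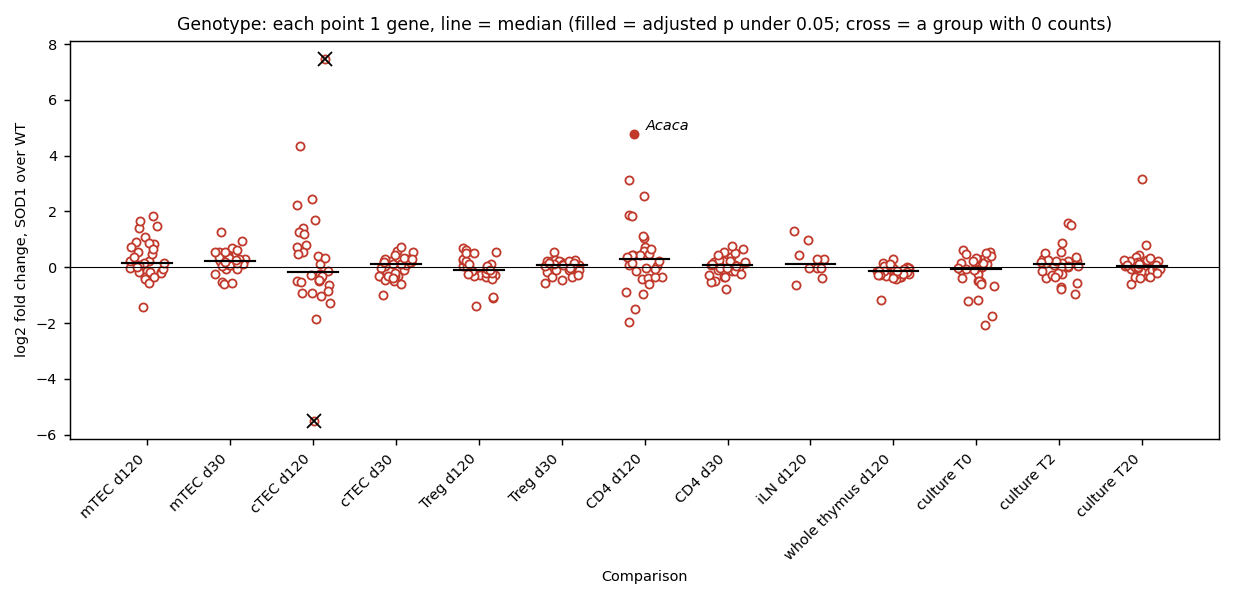
Log2 fold change of SOD1 over WT for each gene of the set in the 13 genotype comparisons (points, jittered sideways), with a line at the median, filled where the adjusted p was under 0.05 and crossed where a group held 0 counts. The medians lie near 0 and the 1 filled point is Acaca in CD4 of d120 (4.79).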

How the data were processed

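RNA was sequenced from low-input SMARTseq v4 libraries, per the labels' protocols. The sorted cells, lymph nodes and cultures were deposited by the authors as raw counts per gene, and whole thymus was deposited as TPM. The submitters' processing notes name mm10 and DESeq2, while aligner, counter and strand setting were not given in the sources used here. The design foresaw counts for whole thymus, and the TPM values were tested instead with limma after adding a pseudocount of 1 TPM and taking log2, leaving out genes averaging under 1 TPM.

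Counts were filtered with edgeR, scaled by TMM and tested by edgeR's quasi-likelihood test with a dispersion per gene and Benjamini-Hochberg adjustment over all genes tested (adjusted p under 0.05), separately in each sorted population for genotype and age, over all sorted libraries for population, and over all cultures for activation. Levels are CPM on TMM-scaled sizes, and folds come from the fits, so they can differ slightly from ratios of levels. Floors are 3 counts over a group on unscaled totals, and cover counting error only. Depth ran from 15135 to 36919936 counts. The tests were tried on simulated data.

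The 32 genes and the marker and pathway lists were chosen with earlier results of these data known. Some genes of the pathway lists are not reported here. Named with full statistics are up to 12 genes per comparison and direction, or the 2 smallest p-values where none passed, with values per library for up to 4. Within groups, 68 pairs of replicates differed by a chi-square per degree of freedom of at least 3.13, above sampling noise. Same-numbered libraries were not taken as pairs in the main fits, and pairing between them is not excluded. Alternatives were DESeq2, median-of-ratios scaling, voom, trended dispersion, no filter, fewer groups, a replicate block, the set of d120 libraries by number, and leaving out low-depth or single libraries. For that set, d120 libraries with a column number of at least 4 were coded apart, a split that no label names. Lengths and overlaps came from GENCODE vM21, where 55094 of 55487 IDs matched with version and 55394 without. R 4.3.3, edgeR 4.0.16, limma 3.58.1, DESeq2 1.42.0, Python 3.11.15, pandas 2.3.3 and matplotlib 3.10.9 were used.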

Additional observations from a re-analysis of the deposited data

Results flagged for a closer look

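The change with age differed between mTEC and cTEC, by a test of the difference itself, for 3 genes of the set. The differences in log2 fold change (d120 over d30, mTEC minus cTEC) were 3.715 for Mvd (adjusted p = 0.0049), 6.485 for Stard4 (adjusted p = 0.000267) and 6.996 for Fads1 (adjusted p = 3.45e-05). The Mvd call was lost in 17 of 32 alternatives (adjusted p up to 0.234), each a fit of the 2 populations with 1 library left out, and those of Stard4 and Fads1 in 0. Each rests on cTEC libraries of d120 with counts at or near 0, so the fitted sizes depend on the prior count. The comparison was chosen after seeing the data, and over all genes the median difference was 0.55.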

How the results depend on the processing

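Over 2340 values of single genes under alternatives, 2139 kept direction and side of the threshold, 152 lost the call, 45 gained one and 4 reversed. The counts of higher genes in the cultures and of both directions in Treg with age stayed within 1.5 times. The shares of all genes given above are those of the main fits, so they are no background for counts in other fits. Counts of called genes moved as follows. With DESeq2, age by population gave 1 lower gene in mTEC and cTEC and 1 higher in Treg and CD4, genotype by age in CD4 1 higher, genotype in cTEC d120 1 higher, and Treg against CD4 at d30 4 higher. In the fit of the 2 populations alone, age by population in Treg and CD4 gave 1 higher and 1 lower, mTEC against cTEC d30 2 lower, and Treg against CD4 1 lower at d120 and 9 higher at d30. In fits of the groups compared alone, T2 had 1 lower, mTEC against cTEC d30 4 higher and 8 lower, and Treg against CD4 d30 17 higher. With voom, T2 had 1 lower and T20 2 lower, age by population 1 lower in mTEC and cTEC and 4 higher in Treg and CD4, age in cTEC 6 lower, genotype in CD4 d120 0 higher, mTEC against cTEC d30 3 higher, and Treg against CD4 18 higher at d120 and 14 at d30. With median-of-ratios scaling, age by population in mTEC and cTEC gave 1 lower and Treg against CD4 d120 4 higher. Without a filter, T2 had 1 lower and T20 0, age in CD4 1 higher and in cTEC 0 higher, and Treg against CD4 d120 4 higher. With the d120 set as a covariate, age by population gave 1 lower in mTEC and cTEC and 1 higher in Treg and CD4, age in mTEC 1 lower, and genotype by age in CD4 1 higher. With trended dispersion, age in CD4 had 3 lower, in cTEC 0 higher, in mTEC 1 lower, and genotype in CD4 d120 0 higher. Without low-depth libraries, T20 had 2 lower, age by population 1 lower in mTEC and cTEC and 1 higher in Treg and CD4, age in cTEC 7 lower, genotype and genotype by age in cTEC 1 higher each, Treg against CD4 d30 5 higher, and Abca1 by genotype at T20 turned to -0.6686. With the replicate block, age by population in Treg and CD4 gave 1 higher, genotype at culture T2 1 higher and mTEC against cTEC d120 8 higher. Deviations of same-numbered culture libraries correlated at 0.0169 to 0.329, with 5 of 18 pairs over 0.1, and of sorted libraries in 16 of 67 pairs. The numbers were not taken as pairs in the main fits, but these values do not exclude pairing. The cause of these shifts was not tested.

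Leaving out 1 library at a time gave these ranges. Lower genes numbered 1 to 2 at T2 and 1 to 2 at T20. Age gave 1 to 3 higher and 3 to 7 lower in CD4, 0 to 1 higher and 2 to 7 lower in cTEC, and 0 to 1 higher and 1 to 3 lower in mTEC. Age by population gave 2 to 3 higher and 0 to 1 lower in mTEC and cTEC, and 0 to 3 higher and 0 to 2 lower in Treg and CD4. Genotype by age gave 0 to 2 higher in CD4, 0 to 1 in cTEC and 0 to 1 in mTEC. Genotype gave 1 to 3 higher and 0 to 1 lower in CD4 d120, 0 to 1 higher in cTEC d120, 0 to 3 higher in mTEC d120, and 0 to 2 higher and 0 to 1 lower in Treg d120. The genotype log2 fold changes ran from 0 to 8.152 for Fads1 in cTEC d120, -2.589 to 1.08 for Scd1 at T0, and -0.8713 to 3.765 for Abca1 at T20. In fits of 2 populations, mTEC against cTEC d30 had 1 to 2 lower, and Treg against CD4 11 to 14 higher and 1 to 2 lower at d120 and 5 to 10 higher at d30. Leaving out each library in the fit of all 16 sorted groups was not run. Libraries under 3e+05 counts limit what could be detected for low genes, in iLN most of all, where 10 of 32 genes were tested.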
